A study of Mus musculus with 18 samples.

Results

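Targeted sequencing of modified cytosines in mouse T cells covered 3 intervals of chromosome 6 around the kappa light chain constant gene Igkc. They lie in the part of the immunoglobulin kappa locus that holds its enhancers, and whether they overlap these enhancers was not tested. The intervals were defined by position and not by any measured value, but with earlier results of these data known. They are 3 of the 8 mouse loci covered by the deposited files. Of 18 libraries, 6 covered them, namely replicate 2 of bisulfite sequencing (BS-seq) and replicate 1 of oxidative bisulfite sequencing (oxBS-seq) at each of 3 stages. They hold 336 covered cytosines, 34 of them in CpGs and 302 outside CpGs. Each stage and assay was thus represented by 1 library at these intervals, so no spread between replicates exists here, and every interval of confidence below (95%, Wilson for a share, Newcombe for a difference) covers counting error only.

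All cells came from female C57/BL6 mice of 4 to 6 weeks, with no mutation or treatment. Double positive (DP) thymocytes were sorted as CD4+ cells with intermediate to high CD8, and CD4 single positive (SP) thymocytes as CD4 cells with high CD3 and intermediate or low CD24. Naive CD4 T cells were sorted as CD4+, CD25-, high in CD62L and low in CD44, from spleen and lymph nodes that had been pooled and depleted of other cells with beads. The study compared these stages to follow 5-methylcytosine (5mC) and 5-hydroxymethylcytosine (5hmC), its oxidised form, through T cell development. BS-seq leaves both marks unconverted and oxBS-seq leaves 5mC alone, so the unconverted share of reads is the sum of both marks in a BS library and 5mC in an oxBS library, and an oxBS share above the BS share corresponds to no amount of 5hmC.

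The kappa locus encodes a light chain of antibodies. Its V and J segments are joined in developing B cells, and the locus is normally neither rearranged nor transcribed into a light chain in T cells. In the B lineage its activity depends on an enhancer in the intron between the J segments and Igkc, which carries E-boxes and a kappa B site bound by NF-kappa B, on an enhancer 3′ of Igkc, which carries a composite site for PU.1 and IRF4, and on a more distal downstream enhancer. Methylation of CpGs across the locus is lost as B cells rearrange and express it.

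The first region, called here the J-C interval, starts 892 bases after the end of Igkj5 (ENSMUSG00000076608.1, chr6:70673880-70673921) and ends 1364 bases before the start of Igkc (ENSMUSG00000076609.1, chr6:70676429-70676751), both on the forward strand. The 3′ interval starts 8812 bases after the end of Igkc, and the distal interval starts 17140 bases after it and ends 21624 bases before Rpia. No feature of the GENCODE vM1 annotation overlaps any of the intervals, so all 3 are annotated as intergenic. Their forward-strand sequences, from the NCBIM37 (mm9) assembly, are printed because the number and spacing of their CpGs set what the assay could read. Capitals mark the CpGs, which are numbered from the left.

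J-C interval, chr6:70674813-70675065: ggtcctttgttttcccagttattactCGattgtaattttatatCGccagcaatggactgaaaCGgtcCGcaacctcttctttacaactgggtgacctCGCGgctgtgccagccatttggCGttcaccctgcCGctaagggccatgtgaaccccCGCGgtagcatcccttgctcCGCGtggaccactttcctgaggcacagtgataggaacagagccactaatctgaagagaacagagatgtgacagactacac
3′ interval, chr6:70685563-70685851: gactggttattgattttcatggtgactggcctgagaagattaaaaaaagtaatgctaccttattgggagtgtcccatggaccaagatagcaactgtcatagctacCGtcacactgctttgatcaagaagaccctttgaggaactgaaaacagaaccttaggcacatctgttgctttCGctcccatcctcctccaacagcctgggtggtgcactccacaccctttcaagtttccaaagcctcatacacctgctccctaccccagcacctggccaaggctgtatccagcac
Distal interval, chr6:70693891-70694090: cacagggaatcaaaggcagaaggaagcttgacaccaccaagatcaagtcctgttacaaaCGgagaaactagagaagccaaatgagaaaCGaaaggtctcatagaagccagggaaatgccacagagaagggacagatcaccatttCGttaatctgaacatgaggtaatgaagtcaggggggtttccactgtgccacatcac

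The J-C interval (253 bases, 52.2% G or C) holds 12 CpGs, and only 0.874% of the 578321 windows of that length on chromosome 6 hold as many. The 3′ interval (289 bases, 48.8% G or C) holds 2 CpGs, as do 53.7% of windows of its length counting those with more, and the distal interval (200 bases, 46.5% G or C) holds 3, as do 20.7%. The J-C interval is therefore the CpG-rich member of the set, and the other intervals are ordinary in this respect. Every CpG was covered on both strands in at least 1 library, which gives 24, 4 and 6 CpG cytosines.

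Because the enhancers of the locus lie in the same region, the sequences of the intervals were searched on both strands for motifs. The kappa B motif had 0 matches in all 3 intervals. Its only match between Igkj5 and Igkc was at chr6:70675749-70675758, 684 bases after the J-C interval and 671 bases before Igkc. The J-C interval thus lies in the intron of the enhancer but does not reach the kappa B motif. The E-box letters CANNTG were found 3 times in the J-C interval, 4 times in the 3′ interval and 1 time in the distal interval, where 74.2%, 78.7% and 65.5% of windows of the same lengths hold at least 1 match. GAGGAA, the core letters of a PU.1 site, occurred in the 3′ interval alone, at chr6:70685699-70685704 between its CpGs, and 25.3% of windows of that length hold it. That match is shown in capitals within its neighbourhood because it is the only PU.1-type match of the set.

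3′ interval, PU.1-type match: gaccctttGAGGAActgaaaac

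**Figure D1:**
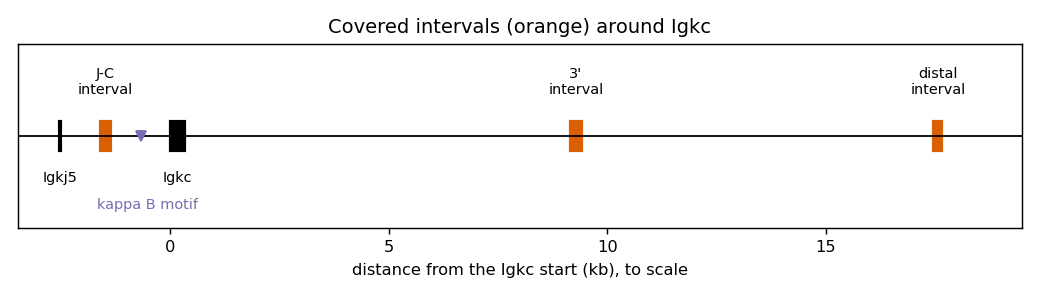
Covered intervals (orange boxes) along chromosome 6, drawn to scale as distance from the Igkc start in kb, with Igkj5 and Igkc as black boxes and the only kappa B motif of the intron as a triangle. The J-C interval ends 684 bases before the kappa B motif, and the 3′ and distal intervals start 8812 and 17140 bases after the end of Igkc.

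The depth at these intervals was low for libraries of this size. Over all 18 libraries, a library held 3450894 to 8602209 cytosine read-outs, those of the control DNA included. In the 6 libraries that covered them, the intervals took between 0.0463% (DP oxBS) and 2.14% (CD4 SP BS) of the read-outs. The median CpG cytosine of the intervals had 54 reads in the DP, 336 in the CD4 SP and 123 in the naive CD4 BS library, and 23, 109 and 73 in the oxBS libraries in the same order. In the same 6 libraries the median of the 64 CpG cytosines covered in all 18 libraries was 10.1 to 67.3 times deeper. Not every other locus was deep. Over the libraries that covered it, the Pax5 locus had a median of 235 reads per CpG cytosine, against 109, 52 and 169 at the J-C, 3′ and distal intervals. The DP oxBS library did not cover the J-C interval at 10 or more reads, and it and both naive CD4 libraries covered neither the forward strand of the 3′ interval nor the reverse strand of the distal one. Over the 64 CpG cytosines covered in all 18 libraries the 6 libraries stood close to the remaining replicates of their groups, with mean shares of 89.5%, 73.3% and 52.4% for BS and 77.0%, 72.8% and 57.9% for oxBS (DP, CD4 SP, naive CD4), against ranges of 88.6% to 89.1%, 74.2% to 75.2% and 53.2% to 56.3%, and of 75.5% to 77.5%, 73.3% to 73.6% and 57.3% to 57.4%, in those replicates.

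A conflict between the assays precedes all results. At the intervals the oxBS shares of CD4 SP and naive CD4 cells were far above the BS shares, by up to 86.8 points at a single cytosine, which the chemistry of the assays cannot give within 1 DNA sample. The BS and oxBS libraries carry different replicate numbers and are by their labels not parts of the same DNA sample. No 5hmC level was therefore derived here, and the shares are given per assay. Whether the reads at these intervals come from the sorted cells was not tested.

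In the J-C interval, most reads were unconverted, apart from the forward strand of the CD4 SP and naive CD4 BS libraries. On the forward strand the mean over the 12 CpGs was 84.0% (72.5 to 92.0%) in the DP BS library, 46.2% (41.0 to 51.6%) in the CD4 SP BS library and 49.4% (34.6 to 63.3%) in the naive CD4 BS library. In the oxBS libraries it was 96.6% (90.7 to 98.5%) for CD4 SP and 94.6% (81.1 to 99.3%) for naive CD4 cells. DP stood apart from both later stages in BS, and both oxBS libraries lay near complete methylation.

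The reverse strand of the J-C interval was unconverted in most reads of every library. Its mean share was 95.5% (89.9 to 98.1%) in DP, 84.8% (80.8 to 88.1%) in CD4 SP and 82.9% (75.4 to 88.0%) in naive CD4 BS, and 97.4% (94.0 to 98.9%) and 93.7% (86.7 to 97.4%) in CD4 SP and naive CD4 oxBS. The order of the BS libraries was that of the forward strand for DP against the rest, with a much smaller distance. CpG 11, in the last CGCG of the interval, had the highest share of the set, with 188 of 188 reads unconverted on the reverse strand of the CD4 SP oxBS library (98.0 to 100%).

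The range of shares among the CpGs of the J-C interval varied between libraries. On the forward strand of the CD4 SP BS library, at a median of 333 reads, the 12 shares lay between 43.5% and 49.6%. In the naive CD4 BS library, at a median of 43 reads, they ran from 32.6% to 72.1%, and in the DP BS library from 70.9% to 90.4%. CpGs 7 and 8 shared the lowest value, 14 of 43 reads or 32.6% (20.5 to 47.5%) in naive CD4 BS, and CpG 5, picked after its values were seen, had the highest there, 31 of 43 reads or 72.1% (57.3 to 83.3%). The range was thus wider in the shallower naive CD4 library than in the CD4 SP library, and whether it exceeds counting error was not tested. On the reverse strand CpGs 7 and 8 were also the lowest of the naive CD4 BS library, at 73.4% (65.5 to 80.0%) and 76.8% (69.1 to 83.1%).

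**Figure D2:**
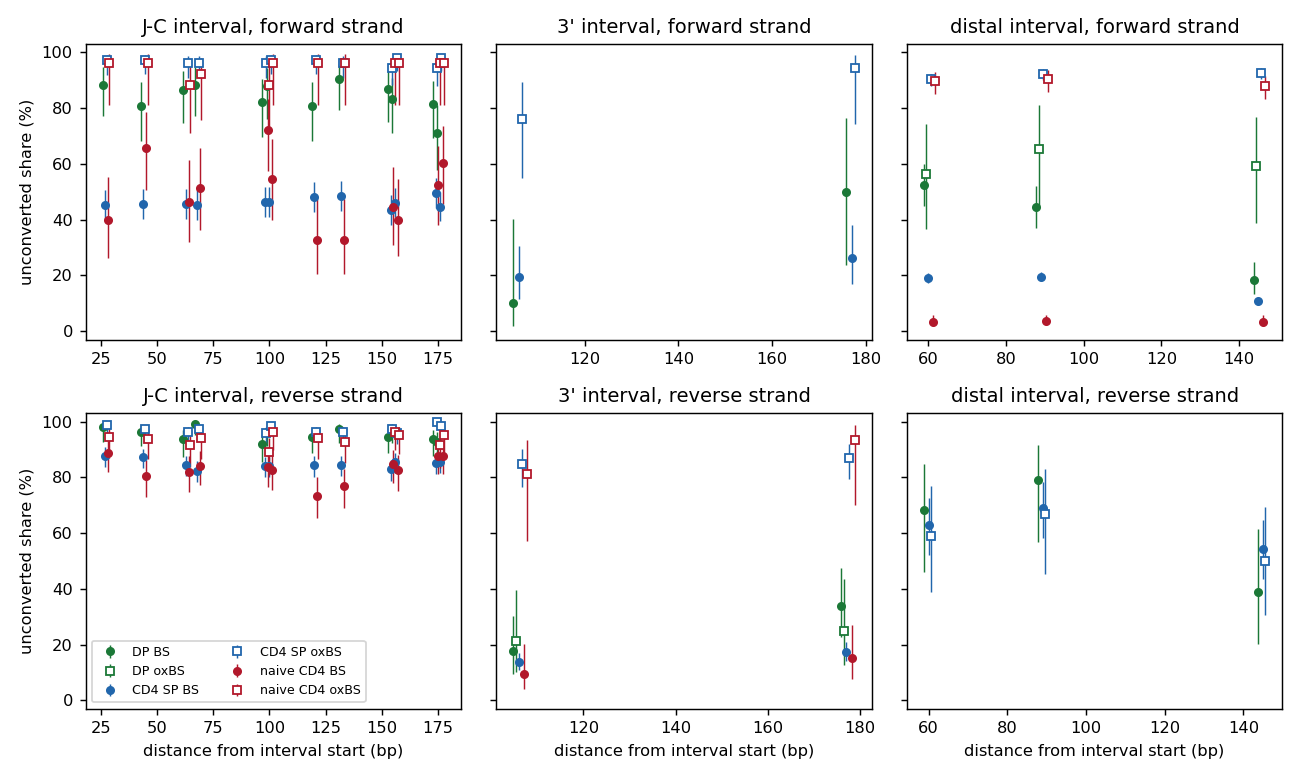
Unconverted share (%) of each CpG cytosine against distance from the interval start (bp), with the forward strand above and the reverse strand below; filled circles are BS and open squares oxBS libraries, colours are stages, and bars are 95% Wilson intervals. On the forward strand of the distal interval the naive CD4 BS points lie between 3.30% and 3.56% while the naive CD4 oxBS points lie between 88.1% and 90.3%.

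In the 3′ interval, the region that holds the PU.1-type match, all BS libraries and the DP oxBS library were mostly converted, and the later oxBS libraries were mostly unconverted. The mean share of its 2 CpGs on the reverse strand was 25.8% (15.2 to 38.2%) in DP, 15.6% (12.7 to 19.0%) in CD4 SP and 12.3% (6.55 to 24.8%) in naive CD4 BS. In oxBS it was 23.2% (10.2 to 39.5%) in DP, 85.8% (78.0 to 91.2%) for CD4 SP and 87.3% (64.0 to 96.5%) for naive CD4 cells. The DP assays lay within each other's counting error, and the CD4 SP and naive CD4 assays lay at opposite ends of the scale. The forward strand, read at 10 to 67 reads, gave 30.0% (10.8 to 60.3%) in DP BS, 22.8% (14.3 to 34.2%) in CD4 SP BS and 85.3% (64.0 to 94.8%) in CD4 SP oxBS.

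CpG 1 of the 3′ interval, which precedes the PU.1-type match, had the lower share on the reverse strand of every library. It was 17.7%, 13.8% and 9.43% in DP, CD4 SP and naive CD4 BS and 21.4%, 84.6% and 81.3% in the oxBS libraries. CpG 2 had 34.0%, 17.3% and 15.1% in BS and 25% (7 of 28 reads), 86.9% and 93.3% in oxBS. The lowest value of the interval was CpG 1 in naive CD4 BS, with 5 of 53 reads (4.10 to 20.3%), and the highest was CpG 2 on the forward strand of CD4 SP oxBS, with 17 of 18 reads or 94.4%. On the reverse strand the counting intervals of both CpGs overlapped in every library, including naive CD4 BS, where each had 53 reads.

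The distal interval had the deepest strand of the set, and there the BS shares of the 3 stages were well apart. On the forward strand its 3 CpGs averaged 38.4% (31.5 to 46.0%) in DP, 16.5% (14.9 to 18.1%) in CD4 SP and 3.39% (1.90 to 5.67%) in naive CD4 BS, at medians of 169, 2067 and 364 reads. The oxBS means were 60.3% (40.8 to 77.8%) in DP, 91.8% (89.6 to 93.6%) for CD4 SP and 89.4% (84.7 to 92.8%) for naive CD4 cells. No BS interval overlapped that of another stage, and the BS and oxBS orders ran in opposite directions from DP to the later stages.

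CpG 3 of the distal interval set the low end. In DP BS its share was 18.3%, against 52.4% at CpG 1 and 44.4% at CpG 2, and in CD4 SP BS it was 10.7%, against 19.1% and 19.6%. In naive CD4 BS the 3 CpGs were alike at 3.32%, 3.56% and 3.30%, the last being 12 of 364 reads (1.90 to 5.67%) and the lowest share of the interval. In oxBS CpG 3 was not low, with 59.1% in DP, 92.7% (676 of 729 reads, the highest of the interval) for CD4 SP and 88.1% for naive CD4 cells.

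The reverse strand of the distal interval, covered at 18 to 81 reads in 3 libraries, did not show these differences. Its mean share was 62.1% (41.0 to 80.9%) in DP BS, 62.1% (50.8 to 71.6%) in CD4 SP BS and 58.6% (38.7 to 76.7%) in CD4 SP oxBS. The 3 values lay within counting error of each other, while on the forward strand the same libraries stood at 38.4%, 16.5% and 91.8%. CpG 3 was again the lowest CpG of each library here, with 38.9%, 54.3% and 50.0%.

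**Figure D3:**
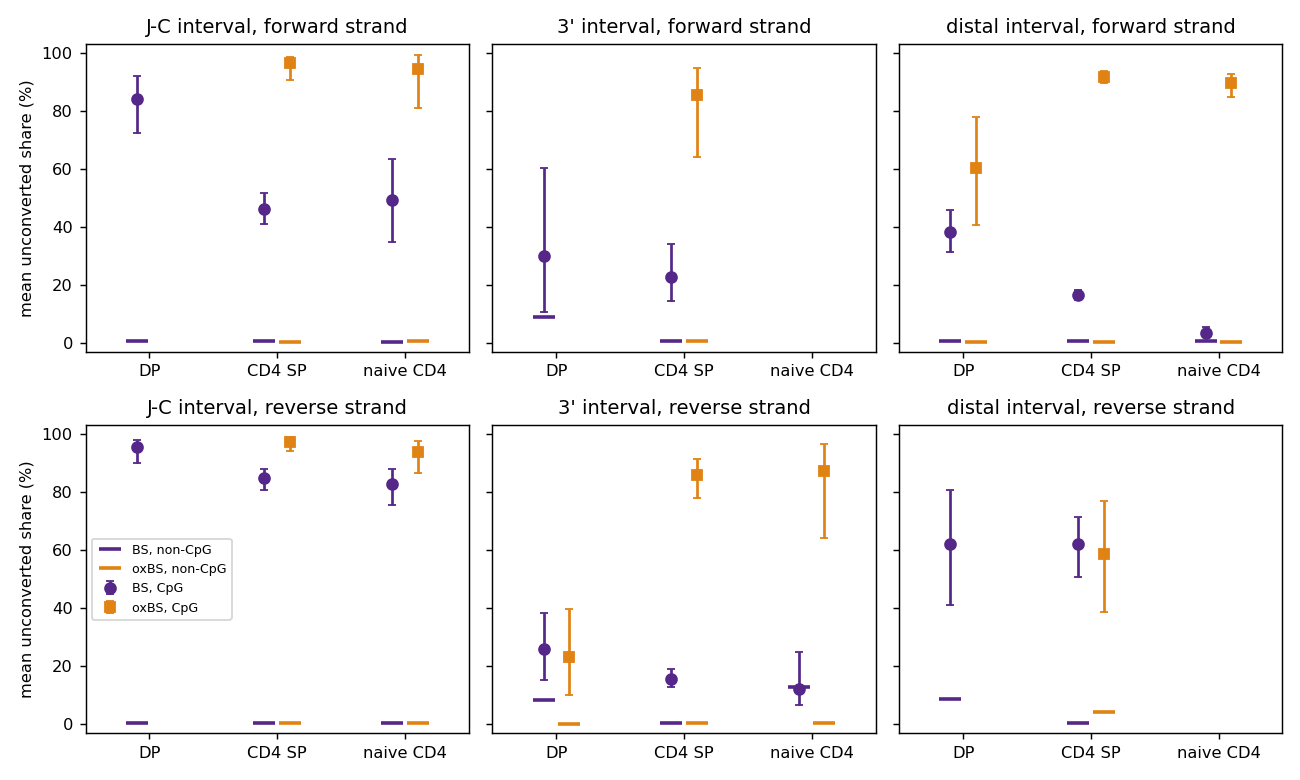
Mean unconverted share (%) over the CpG cytosines of each interval and strand by stage, with circles for BS, squares for oxBS, 95% Wilson bars taken at the median reads, and dashes for the share at non-CpG cytosines. In the 3′ interval the naive CD4 BS circle, at 12.3%, lies on its non-CpG dash, at 12.8%.

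The strands of a CpG are methylated alike at most CpGs of mammalian DNA, and here they were compared where both were covered. In the J-C interval the forward share was below the reverse share at 12 of 12 CpGs in each BS library. The mean difference, forward minus reverse, was -11.5 points in DP, -38.6 points (-44.7 to -31.8) in CD4 SP and -33.5 points (-49.0 to -17.7) in naive CD4 BS. In the oxBS libraries it was -0.796 points for CD4 SP and 0.851 points for naive CD4 cells. The strands thus differed in BS and lay within 1 point of each other on average in oxBS.

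The distal interval changed direction with the assay. Forward minus reverse was -23.7 points in DP BS and -45.7 points (-55.2 to -34.3) in CD4 SP BS, lower at 3 of 3 CpGs in each. In CD4 SP oxBS it was 33.2 points (14.9 to 53.1), higher at 3 of 3 CpGs. In the 3′ interval the strands lay closer, with 4.20 points in DP BS, 7.23 points in CD4 SP BS and -0.448 points in CD4 SP oxBS. The strands differ in depth, and the part of depth or of separate amplification in these differences was not tested.

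Cytosines outside CpGs are almost unmethylated in such cells, so their unconverted share measures failed conversion. In the J-C interval it was 0.287% to 0.718% on either strand of every library. On the forward strand of the distal interval it was 0.324% to 0.693%. At these levels the CpG shares above are many times the background, and the lowest mean, 3.39% in the naive CD4 BS library, compares with 0.543% at the non-CpG cytosines of the same strand.

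The 3′ interval did not share this low background in DP and naive CD4 BS. Its non-CpG share on the reverse strand was 8.18% in DP BS and 12.8% in naive CD4 BS, and 0.0792% to 0.456% in the remaining 4 libraries, and on the forward strand it was 9.05% in DP BS. In naive CD4 BS the CpG share of 12.3% was thus no higher than the non-CpG share, and a correction for incomplete conversion took it to -0.637%. The corrected share was 19.2% in DP BS, where the count stayed above background.

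The unconverted non-CpG reads of the 3′ interval came in a near constant number. In naive CD4 BS, 25 of 47 non-CpG cytosines of the reverse strand had exactly 8 unconverted reads and 34 had 7 to 9, and of the 6 with none, 4 lay before base 21 and 2 after base 209 of the interval. In DP BS the commonest number was 5, at 19 of 47 cytosines, and 33 lay within 1 read of it. The forward strand of DP BS had 1 unconverted read of about 10 at 56 of 74 cytosines. The files hold counts per position and no single reads, so whether the same molecules were unconverted throughout was not tested. The reverse strand of the distal interval had the same feature at lower depth, with 2 unconverted reads at 26 of 39 non-CpG cytosines in DP BS and 1 at 26 of 39 in CD4 SP oxBS, and non-CpG shares of 8.70% and 4.10%.

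**Figure D4:**
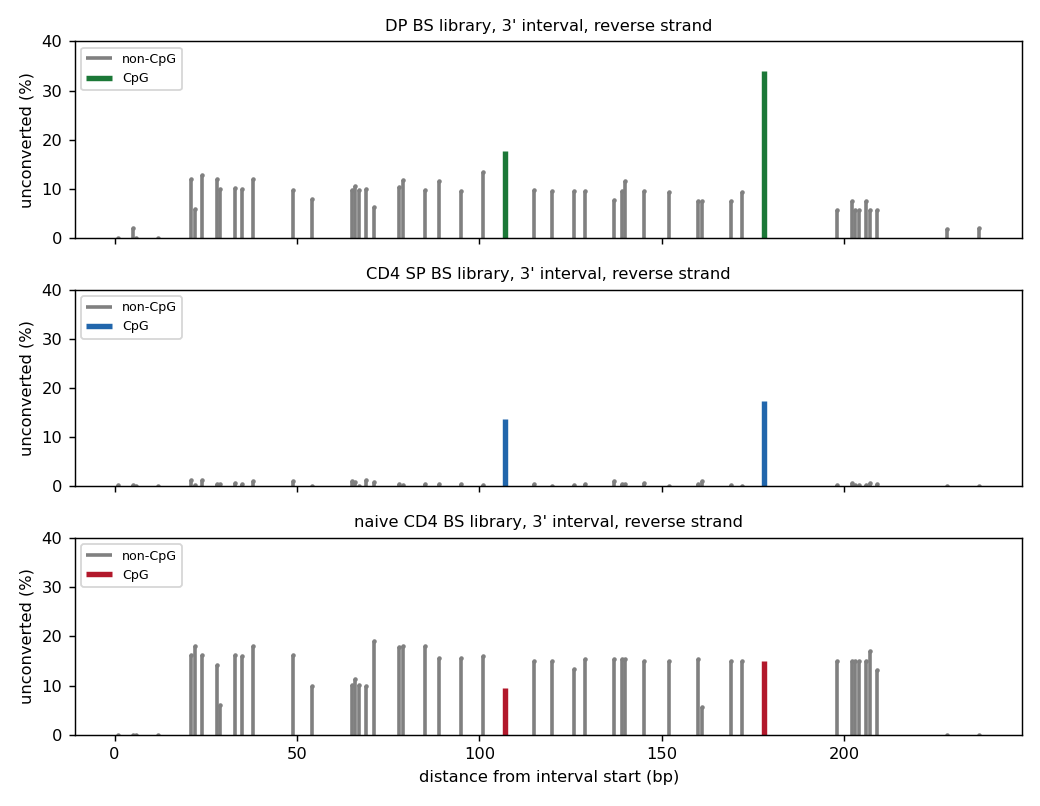
Unconverted share (%) of every cytosine on the reverse strand of the 3′ interval against distance from the interval start (bp) in the 3 BS libraries, with non-CpG cytosines in grey and CpGs in colour. In naive CD4 cells the CpGs, at 9.43% and 15.1%, stand no higher than the grey lines around them, and in CD4 SP cells they stand at 13.8% and 17.3% over a background of 0.456%.

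Stages were then compared within each assay, cytosine by cytosine, by two-sided Fisher's exact tests adjusted over all mouse CpG cytosines covered in both libraries. A cytosine was called where the adjusted p was under 0.05 and the shares differed by at least 10 points. With 1 library a stage these tests compare libraries and not conditions. As a measure of spread between libraries, the SD over the 3 replicates of a group was taken at the 64 cytosines covered in all 18 libraries. Over all groups it had a median of 1.06 points and a 95th percentile of 5.51 points, with a highest value of 22.3 points in naive CD4 BS. The groups differed at these cytosines, with a 95th percentile of 19.49 points in naive CD4 BS, 3.871 in DP BS and 5.765 in CD4 SP BS. The value over all groups thus understates the upper spread of the naive CD4 BS replicates there. Those cytosines are deeper than the intervals at the median, so the spread at the intervals is not known.

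From DP to CD4 SP, 22 of 34 BS cytosines of the intervals were called and all were lower in CD4 SP, against 45.2% of all 104 cytosines tested, which were all lower as well. They were 19 of 24 in the J-C interval, 1 of 4 in the 3′ interval and 2 of 6 in the distal interval. The strand means differed by -37.8 points (-47.4 to -25.1) on the forward and -10.7 points (-15.5 to -4.24) on the reverse strand of the J-C interval, and by -21.9 points (-29.7 to -14.8) on the forward strand of the distal interval. All 12 forward cytosines of the J-C interval were called. The 3′ interval differed by -10.3 points (-23.0 to 0.902) on the reverse strand, and the reverse strand of the distal interval by 0.0542 points (-22.2 to 22.8), neither beyond counting error. On the 3′ reverse strand the non-CpG share was 8.18% in DP BS and 0.456% in CD4 SP BS, and the tests used uncorrected counts. Corrected means there were 19.2% and 15.2%. Averaged over both strands, correction by the non-CpG share of the interval took the 3′ difference from -8.74 to -2.56 points.

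From CD4 SP to naive CD4 cells, 5 of 29 BS cytosines were called, against 47.5% of all 99 tested. Of these, CpGs 1 and 2 of the distal forward strand were lower, by -15.8 points (-18.0 to -12.9) and -16.0 points (-18.3 to -13.0), and so was CpG 7 of the J-C reverse strand, by -10.9 points (-19.5 to -3.11). CpGs 2 and 5 of the J-C forward strand were higher in naive CD4 cells, by 20.3 points (4.05 to 34.0) and 25.7 points (9.98 to 38.1). These calls rest on 41 and 43 naive CD4 reads. The reverse strands of the same CpGs differed by -6.83 and -0.471 points, and forward CpGs 7 and 8 by -15.5 and -15.9 points, none of them called. No cytosine of the other loci was called higher in this comparison. The mean differences were -13.1 points (-15.3 to -10.3) on the distal forward strand and 3.18 points (-12.6 to 17.9) on the J-C forward strand.

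Between the end points, DP and naive CD4 cells, 20 of 29 BS cytosines were called, all lower in naive CD4 cells, against 64.6% of all 99 tested. The largest difference in the J-C interval was at CpG 8 of the forward strand, -57.8 points (-71.1 to -39.3, adjusted Fisher's exact p = 7.31e-09). In the distal interval it was at CpG 1 of the forward strand, -49.1 points (-56.6 to -41.2, adjusted Fisher's exact p = 3.70e-39). Every called cytosine of the other loci was also lower, so the count at the intervals was near that of the whole set and in the same direction.

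The oxBS libraries went the other way. All 5 cytosines that could be compared between DP and CD4 SP were called and higher in CD4 SP, against 20.3% of all 74 tested in either direction and 8.11% in the upward direction. They were also all called and higher in naive CD4 cells than in DP, against 66.7% of all 69 tested in either direction and 7.25% in the upward direction. At the other loci 1 of 69 and 0 of 64 cytosines were called higher in these comparisons, and 9 and 41 were called lower. The 5 cytosines, on 1 strand each of the 3′ and distal intervals, thus went against most called cytosines of the other loci. From DP to CD4 SP only 10 of the 69 other cytosines were called in either direction. The J-C interval could not be compared with DP. The DP library had 22 to 28 reads for each of the 5 cytosines, and the naive CD4 library 15 to 16 in the 3′ interval.

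The size of the oxBS differences was largest in the 3′ interval. On its reverse strand the mean was 62.6 points (44.7 to 76.9) higher in CD4 SP and 64.1 points (36.4 to 80.5) higher in naive CD4 cells than in DP. CpG 2 gave the largest single difference, 68.3 points between naive CD4 and DP (38.8 to 81.8, adjusted Fisher's exact p = 2.88e-05). The naive CD4 side of these values is shallow, with 13 of 16 reads unconverted at CpG 1 and 14 of 15 at CpG 2. On the distal forward strand the means were 31.5 points (13.8 to 51.1) and 29.1 points (10.9 to 48.9) higher. Each rests on 1 library a side, and the spread between libraries at these cytosines is not known.

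Between CD4 SP and naive CD4 cells the oxBS libraries had 0 of 29 called cytosines in Fisher's exact test, against 30.9% of all 94 tested. At an unadjusted p under 0.05 there were 2, and 1 after adjustment, which differed by less than 10 points. The mean differences, naive CD4 minus CD4 SP, were -2.02 points on the J-C forward strand, -3.67 points (-10.9 to 1.39) on the J-C reverse strand, 1.53 points on the 3′ reverse strand and -2.39 points (-7.42 to 1.64) on the distal forward strand. At the other loci 29 of 65 cytosines were called, all lower in naive CD4 cells.

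The assays were compared within each stage last. In DP cells 1 of 5 cytosines was called, against 39.2% of all 74 tested. It was CpG 3 of the distal forward strand, where BS minus oxBS was -40.8 points (-59.1 to -19.4). The 3′ interval differed by 2.59 points (-17.0 to 20.9) on the reverse strand and the distal interval by -21.9 points (-40.8 to -0.965) on the forward strand. At the other loci 28 of 69 cytosines were called in DP, all higher in BS.

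In CD4 SP cells 31 of 34 cytosines were called and all were lower in BS, against 48.1% of all 104 tested in either direction and 40.4% in the downward direction. The 3 not called were those of the distal reverse strand, where the mean difference was 3.55 points (-18.1 to 25.2). The means were -50.4 points (-55.7 to -42.3) and -12.6 points (-16.9 to -7.92) on the J-C forward and reverse strands. They were -70.2 points (-76.4 to -61.7) on the 3′ reverse strand and -75.3 points (-77.7 to -72.6) on the distal forward strand.

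In naive CD4 cells 22 of 29 cytosines were called, all lower in BS, against 48.9% of all 94 tested in either direction and 45.7% in the downward direction. The mean differences were -45.2 points (-61.9 to -26.5) on the J-C forward strand, -10.8 points (-19.3 to -2.27) on the J-C reverse strand, -75.0 points (-85.5 to -48.1) on the 3′ reverse strand and -86.0 points (-89.7 to -80.8) on the distal forward strand. The largest single differences were -63.6 points at CpG 7 of the J-C forward strand (-76.1 to -42.4, adjusted Fisher's exact p = 1.89e-07), -78.2 points at CpG 2 of the 3′ reverse strand (-87.3 to -52.2, adjusted Fisher's exact p = 9.95e-08) and -86.8 points at CpG 2 of the distal forward strand (-90.3 to -81.6, adjusted Fisher's exact p = 6.45e-114). The 3′ values rest on 15 to 16 reads in the naive CD4 oxBS library. The oxBS shares of both later stages were high throughout, apart from the distal reverse strand of CD4 SP.

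The same 6 libraries placed the assays differently at other genes. Averaged over CpG cytosines, BS minus oxBS at the Pax5 intron, another B-lineage gene covered in these libraries, was -2.36, -6.89 and 0.277 points in DP, CD4 SP and naive CD4 cells. At Il6ra, the gene of an interleukin-6 receptor chain, it was 21.7, -16.9 and -20.3 points, so a negative difference in the later stages was not limited to the kappa intervals. At the intervals it reached -31.5, -66.4 and -35.9 points in CD4 SP cells (J-C, 3′ and distal) and -28.0, -75.0 and -86.0 points in naive CD4 cells. These means cover different strands. The J-C forward strand stood at -50.4 and -45.2 points in CD4 SP and naive CD4 cells. Its reverse strand, at -12.6 and -10.8 points, lay above the Il6ra means of those stages. With reads pooled, the J-C value of naive CD4 cells was -19.0 points. The CD4 SP distal value averages the forward strand, at -75.3 points, with the reverse strand, at 3.55 points, and was -72.6 points with reads pooled, whereas the naive CD4 values of the 3′ and distal intervals rest on 1 strand.

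**Figure D5:**
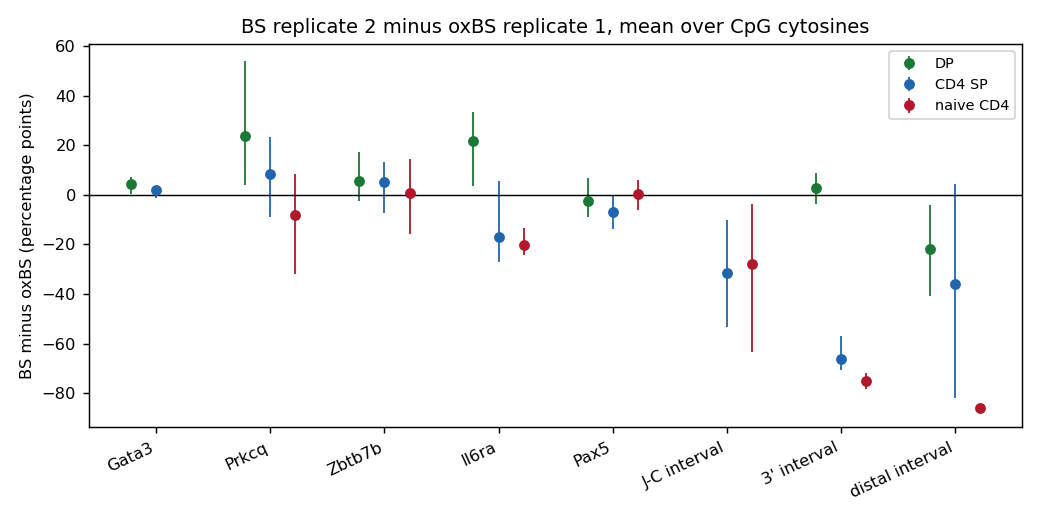
BS replicate 2 minus oxBS replicate 1 (percentage points) averaged over the CpG cytosines of each locus, coloured by stage, with bars from the smallest to the largest single cytosine and with both strands averaged where both were covered. In these averages the kappa intervals lie between -28.0 and -86.0 points in the later stages. That is below every other locus, of which Il6ra is the lowest at -20.3 points in naive CD4 cells. The order does not hold strand by strand. The J-C reverse strand was at -12.6 points in CD4 SP and -10.8 points in naive CD4 cells, and the distal reverse strand at 3.55 points in CD4 SP.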

How the data were processed

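Per the labels and the methods, the authors mixed control DNA of known modification into each sample, split it, oxidised one portion, treated both with bisulfite, amplified target regions by PCR and sequenced them on a MiSeq. The submitters' processing notes name Bismark 0.7.12, Bowtie 2 and mm9. The deposited files give, per cytosine, the percent of unconverted reads and the counts of unconverted and converted reads, with no normalization. Shares were calculated here from those deposited counts. The authors kept positions with at least 10 reads. Reads carry no molecular identifiers, so PCR copies are counted as reads. Groups came from the labels, 6 groups of 3 libraries.

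Context and strand were read from NCBIM37, and all 9765 mouse positions were C or G there. A strand mean weights its CpG cytosines equally, and its 95% interval was taken at the median reads, because CpGs of 1 interval share reads and are not replicates. Where 0 reads were unconverted, 3 counts of the total is the limit. Fisher's exact tests were adjusted by Benjamini-Hochberg over all mouse CpG cytosines covered in both libraries, in 9 comparisons of libraries, each with 1 library a side. They were checked on simulated counts. These held counting error only, with no spread between libraries and no PCR copies, so the check does not cover either. Per interval, the text names the CpGs with the highest and lowest share and the largest differences. Alternatives were reads pooled over cytosines, a minimum of 100 reads, interval ends of 25 bases left out, correction by the non-CpG share, and other size limits of a call. The intervals, motifs and comparisons were chosen with earlier results of these data known. Lambda control positions were used here only in the total read-outs of a library. The analysis used Python 3.11.15, scipy 1.17.1 and statsmodels 0.14.6.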

Additional observations from a re-analysis of the deposited data

Results flagged for a closer look

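On the reverse strand of the 3′ interval, BS minus oxBS had opposite signs between stages. It was 2.59 points in DP cells and -70.2 points in CD4 SP cells, and -75.0 points in naive CD4 cells. Each value rests on 1 BS and 1 oxBS library, the DP value lies within its counting error, and the difference between stages was not tested.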

How the results depend on the processing

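The alternatives were applied to shares and differences averaged over the covered strands of an interval, to counts of calls and to the median replicate SD. Of 214 values recomputed, 183 stayed within a limit of the main value and 31 did not. The limit was counting error for shares and differences and 1.5 times for counts. For the replicate SD it was the spread of the SDs, 2.63 points. The alternative that left out interval ends made up 41 of the 183. No CpG lay within 25 bases of an end, so it removed no cytosine and could show nothing about stability. Means over both strands moved where the strands differ in share and depth. With reads pooled over cytosines, the share became 74.9% (from 66.1%) in naive CD4 BS at the J-C interval, and 40.8% (from 50.2%), 18.2% (from 39.3%) and 90.8% (from 75.2%) in DP BS, CD4 SP BS and CD4 SP oxBS at the distal interval. The differences became -22.6 points for CD4 SP minus DP in distal BS, 8.41 points for naive CD4 minus CD4 SP in J-C BS, -72.6 points for BS minus oxBS in distal CD4 SP and -19.0 points in J-C naive CD4. A minimum of 100 reads, which gave no value in 22 cases, leaves mainly the deeper strand. Shares were then 95.2% and 82.9% in J-C BS of DP and naive CD4, 15.6% in 3′ BS of CD4 SP, and 38.4%, 16.5% and 91.8% in distal DP BS, CD4 SP BS and CD4 SP oxBS. The differences were -10.7 points (CD4 SP minus DP) and -12.9 points (naive CD4 minus DP) in J-C BS, -21.9 points (CD4 SP minus DP) in distal BS and -75.3 points (BS minus oxBS) in distal CD4 SP.

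Correction by the non-CpG share of the interval, or of the strand (added after the data were seen), took the 3′ share of naive CD4 BS from 12.3% to -0.637%, and naive CD4 minus CD4 SP there to -15.8 points in either case (-15.75 and -15.8). The BS calls were 14, 2 and 13 (CD4 SP minus DP, naive CD4 minus CD4 SP, naive CD4 minus DP) at a limit of 20 points, and 8 of 14, 3 of 15 and 10 of 14 at 100 reads. BS minus oxBS gave 19 calls in CD4 SP at 20 points and 3 of 3 in naive CD4 at 100 reads, and naive CD4 minus CD4 SP in oxBS gave 1 at a limit of 5 points. The fewer calls follow from stricter limits and fewer cytosines.

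The median replicate SD of 1.06 points was 0.559 to 1.05 points with 1 replicate left out, the lowest without replicate 1, and 0.833 points at 1000 reads. No paired analysis was possible because the BS and oxBS libraries that cover the intervals carry different replicate numbers and each stage has 1 of either.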
